A study of Mus musculus with 4 samples.

Results

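The regions described here are stretches of mouse chromatin that held a CUT&RUN peak in every library of the series and lay within the body of a protein-coding gene, away from its ends. The intervals of the 4 deposited peak lists, all of one width and centred on a summit, were merged where they shared 1 bp or more. A merged region was kept when it held a peak of all 4 lists, when its midpoint lay inside a RefSeq protein-coding gene of mm10, and when it was more than 1 kb from the end of every such gene. Of 258125 merged regions on chromosomes 1 to 19, 1373 (0.532%) met the rule, and they made up 26.7% of the 5140 regions with a peak in all libraries. Of the other shared regions, 2601 (50.6%) lay at gene ends and 1166 (22.7%) between genes. The regions were thus chosen by measured values, the presence of a peak in each library, so that their presence is a description and was not tested.

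The 4 libraries came from medullary thymic epithelial cells (mTEC) of mice with the Trp53-WT genotype, sorted from the thymus at 4 to 5 weeks of age after enrichment for the epithelial surface protein EpCAM. There were 2 libraries of mTEChi cells and 2 of mTEClo cells, with 500000 cells used per condition. The hi and lo suffixes are common names for mature cells with much surface MHC class II and for cells with little of it. P53 is the antibody target in the titles, but BAF155 is the target in the protocol text. BAF155 is a core component of BAF remodellers, and which protein the peaks mark is not settled by the labels. No control antibody library was analysed here. Nothing in the labels ties the replicates to separate animals, and the p-values below therefore rest on a spread among libraries that may be of technical origin. The lists held 73510 and 85308 peaks in mTEChi replicates 1 and 2, and 89809 and 69359 peaks in mTEClo replicates 1 and 2. Sequencing depth is unknown, because peak lists hold no read counts.

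Many mammalian genes are transcribed from more than one start site, and a start that lies inside the annotated interval of a gene is often called an alternative or internal promoter. Promoters of widely active genes commonly sit in CpG islands, stretches rich in G and C that keep their CpG dinucleotides, and often carry GC boxes bound by Sp factors and CCAAT boxes bound by the trimeric factor NF-Y. Medullary thymic epithelial cells present self-antigens to developing T cells, and their chromatin is of interest because they transcribe many genes that are otherwise restricted to other tissues.

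The best-ranked regions at an internal start are given in sequence as examples. They were taken by rank and are not typical of all such sites. Over the 266 windows of all these sites, 43.6% held a CCAAT box and 64.3% a GC box. The windows below are from RefSeq (GRCm38.p6, the assembly named mm10) and run from 250 bases before to 50 bases after a listed transcription start, 5′ to 3′ on the strand of that transcript. Capitals mark GC boxes (GGGCGG or its reverse complement CCGCCC) and CCAAT boxes (CCAAT or its reverse complement ATTGG). The first 6 are the best-ranked regions at an internal start, and Rfx5 is shown because the RFX complex it belongs to activates MHC class II promoters. Rfx5 and the CCAAT box as a marked motif were picked after the windows had been seen.
Hnrnpl, chr7:28810640-28810939, plus strand: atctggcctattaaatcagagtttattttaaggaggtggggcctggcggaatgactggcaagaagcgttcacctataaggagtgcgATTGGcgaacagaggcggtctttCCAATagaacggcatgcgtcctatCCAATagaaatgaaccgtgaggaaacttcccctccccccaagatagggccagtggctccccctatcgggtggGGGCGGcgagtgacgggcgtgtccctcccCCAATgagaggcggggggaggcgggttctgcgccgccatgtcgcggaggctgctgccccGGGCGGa
1110020A21Rik (in Ppm1b), chr17:84957661-84957960, minus strand: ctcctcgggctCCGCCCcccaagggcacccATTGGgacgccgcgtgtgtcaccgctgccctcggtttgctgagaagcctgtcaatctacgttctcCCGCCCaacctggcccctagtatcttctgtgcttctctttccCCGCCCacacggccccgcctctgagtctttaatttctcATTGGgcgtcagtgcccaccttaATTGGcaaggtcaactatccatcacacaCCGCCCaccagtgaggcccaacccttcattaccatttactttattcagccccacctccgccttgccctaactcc
Arntl, chr7:113207215-113207514, plus strand: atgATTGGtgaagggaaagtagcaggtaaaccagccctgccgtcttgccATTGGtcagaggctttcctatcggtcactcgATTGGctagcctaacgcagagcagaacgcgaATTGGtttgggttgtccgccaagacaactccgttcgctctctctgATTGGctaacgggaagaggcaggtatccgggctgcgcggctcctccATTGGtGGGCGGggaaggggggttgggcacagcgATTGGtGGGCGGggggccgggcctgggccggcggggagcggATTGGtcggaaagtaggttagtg
Slc27a1, chr8:71570344-71570643, plus strand: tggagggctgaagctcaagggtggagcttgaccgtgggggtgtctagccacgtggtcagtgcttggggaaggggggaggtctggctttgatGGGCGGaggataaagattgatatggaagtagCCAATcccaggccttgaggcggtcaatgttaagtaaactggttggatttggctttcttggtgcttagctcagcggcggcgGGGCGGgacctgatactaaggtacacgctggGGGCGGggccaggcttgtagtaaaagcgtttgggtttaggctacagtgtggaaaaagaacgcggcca
Sp2, chr11:96977639-96977938, minus strand: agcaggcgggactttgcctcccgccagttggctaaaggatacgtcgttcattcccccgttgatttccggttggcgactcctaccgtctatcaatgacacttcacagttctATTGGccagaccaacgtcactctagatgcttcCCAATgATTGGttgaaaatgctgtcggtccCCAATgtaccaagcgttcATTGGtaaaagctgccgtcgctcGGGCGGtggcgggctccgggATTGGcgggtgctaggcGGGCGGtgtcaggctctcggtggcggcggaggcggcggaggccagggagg
2700012I20Rik (in Sin3a), chr9:57076000-57076299, minus strand: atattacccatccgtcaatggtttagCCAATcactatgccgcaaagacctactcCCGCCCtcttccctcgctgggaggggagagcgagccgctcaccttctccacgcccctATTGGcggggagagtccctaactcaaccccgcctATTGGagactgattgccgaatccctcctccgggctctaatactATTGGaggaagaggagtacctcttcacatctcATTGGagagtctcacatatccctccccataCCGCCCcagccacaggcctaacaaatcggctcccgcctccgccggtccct
Rfx5, chr3:94953858-94954157, plus strand: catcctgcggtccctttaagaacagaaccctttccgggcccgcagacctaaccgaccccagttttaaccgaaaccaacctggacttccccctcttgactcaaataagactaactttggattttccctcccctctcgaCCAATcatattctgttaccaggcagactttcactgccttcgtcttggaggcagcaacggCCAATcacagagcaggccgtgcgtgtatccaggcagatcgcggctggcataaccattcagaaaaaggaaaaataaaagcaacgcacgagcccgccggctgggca

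Each of the first 6 windows held between 1 and 8 CCAAT boxes and between 2 and 4 GC boxes. The Arntl window, from an internal promoter of the gene of the circadian clock factor BMAL1, had 8 CCAAT boxes and 2 GC boxes, with 60.7% G and C. Relative to the start, with upstream positions negative, its summits lay at −182 and −192 bp in mTEChi replicates 1 and 2, and at −168 and −205 bp in mTEClo replicates 1 and 2. The Sp2 window, in a gene of the Sp family of zinc finger factors, had 6 CCAAT boxes, and its summits lay at −176 and −212 bp in mTEChi and at −186 and −216 bp in mTEClo. The summits of the states overlapped in position at both starts.

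The Hnrnpl window had 4 CCAAT boxes and 2 GC boxes; this gene encodes an RNA-binding regulator of splicing. Summits there lay at −168 and −155 bp in mTEChi, and at −137 and −152 bp in mTEClo. In Sin3a, the gene of a scaffold of histone deacetylase complexes, the window belongs to the long non-coding RNA gene 2700012I20Rik on the minus strand and had 5 CCAAT boxes. Its summits lay at −99 and −122 bp in mTEChi and at −118 bp in both mTEClo libraries. The window in Ppm1b, a protein phosphatase gene, likewise belongs to a long non-coding RNA, 1110020A21Rik, with 3 CCAAT boxes and 4 GC boxes. The Slc27a1 window, in a fatty acid transporter gene, had 1 CCAAT box and 3 GC boxes, and the Rfx5 window had 2 CCAAT boxes and no GC box.

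Regions in all libraries lay at internal starts far more often than other inside-gene regions did. RefSeq starts were listed for every chromosome used except 18, which left 1336 regions to assess, and 268 of them (20.1%, Wilson 95% interval 18 to 22.3%) had their midpoint within 500 bp of a listed start. Among inside-gene regions with a peak in 1, 2 and 3 libraries, the shares were 1.38%, 3.89% and 7.64%. Those shares rested on 96804, 10935 and 2932 regions, and the Wilson intervals, which cover counting error only, did not overlap between any of the 4 classes. Regions of more libraries were also wider: the median width was 398 bp with 2 libraries, 454 bp with 3 and 463 bp with 4.

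**Figure D1:**
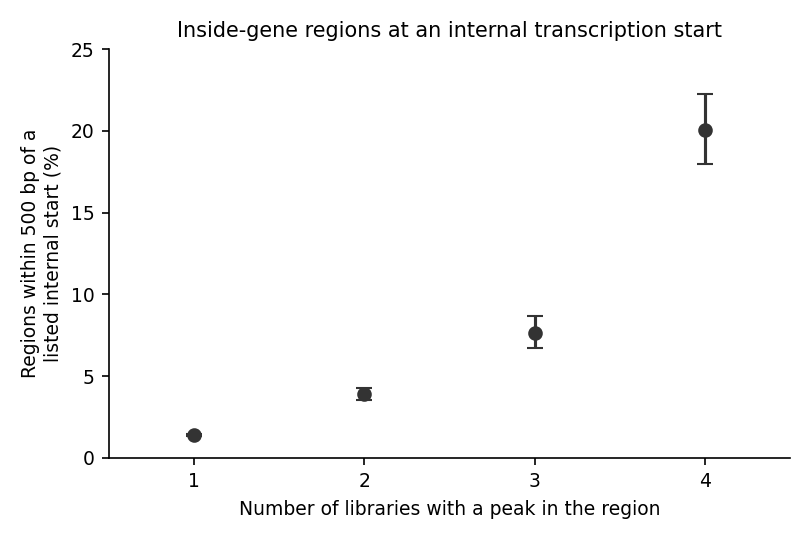
Percent of inside-gene regions whose midpoint lies within 500 bp of a RefSeq start (vertical axis) by the number of libraries with a peak in the region (horizontal axis); points are shares and bars are Wilson 95% intervals. The share is 1.38% with 1 library and 20.1% with all 4.

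Counted on the summits of each library, the share of the shared inside-gene regions at a start was 19.7% and 19.8% in mTEChi replicates 1 and 2, and 19.5% and 19.9% in mTEClo replicates 1 and 2. In regions found in that library alone it was 1.11% and 1.02% in the mTEChi libraries and 2.05% and 1.31% in the mTEClo libraries. The difference averaged 18.4 percentage points and had the same sign in 4 of 4 libraries, with p = 0.13 by the two-sided exact sign-flip permutation test, the smallest p that 4 libraries can give. This test therefore could not reach 0.05. The shared regions are the same in every library, so that the libraries replicate only the single-library side of this difference.

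Most of these starts belonged to the gene that hosts the region. Of the 268 regions, 241 lay at a start of the host itself and 27 at the start of a long non-coding RNA gene. Seen from the starts, 6458 listed starts lay inside protein-coding genes and over 1 kb from gene ends, and 334 of them (5.17%) had one of the regions within 500 bp. The share was 7.98% (296 of 3708) for starts of protein-coding genes and 1.38% (38 of 2750) for starts of long non-coding RNAs. No library had a summit within 500 bp of 4054 internal starts, while 350 had a summit of every library. The table of starts is not complete, and a gene interval spans its outermost transcript, so that an internal start can be the one most used in these cells; transcription was not measured.

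Summits lay mostly just upstream of the start. The median summit position was −84 and −75 bp in mTEChi replicates 1 and 2, and −64 and −74 bp in mTEClo replicates 1 and 2. Upstream summits made up 73.1% and 70.5% in the mTEChi libraries, and 68.7% and 70.9% in the mTEClo libraries. The region midpoints had a median of −75.5 bp and quartiles of −150.2 and 23.5 bp.

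**Figure D2:**
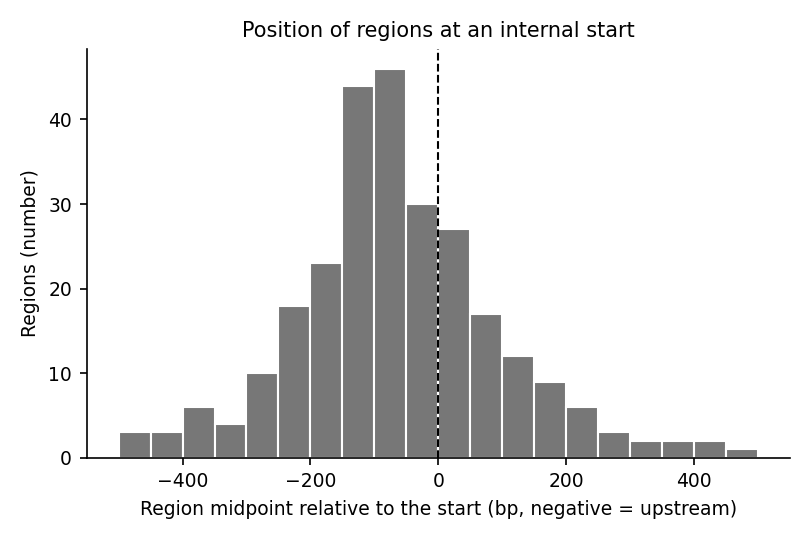
Number of regions (vertical axis) by the position of the region midpoint relative to the nearest listed start (horizontal axis, 50 bp bins, negative upstream), for the 268 regions at an internal start. The median is at −75.5 bp and the 2 highest bins lie upstream of the start.

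Windows at these internal starts resembled those of regions at gene ends in base composition more than they resembled internal starts without a peak. The 268 regions fell at 266 distinct starts, whose windows had a median of 60.8% G and C. The median was 49.7% in the 4054 internal starts without a summit, 61.3% in the 2057 listed starts at regions in all libraries at gene ends, and 52.7% in all 32851 listed starts. The ratio of observed to expected CpG exceeded 0.6, a customary mark of a CpG island, in 71.8% of the windows, against 13.6%, 86.0% and 35.8% in the same 3 sets. Nuclease cutting and peak calling can favour such sequence, and how far base composition enters the presence of a peak was not tested.

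GC boxes occurred in 64.3% of the 266 windows (58.4 to 69.8%), against 19.7% of internal starts without a summit and 35.7% of all listed starts. A short Ets motif, CCGGAAG, read on both strands like the others, occurred in 17.3% (13.2 to 22.3%) against 3.01% and 8.86%. The letters TATAAA were found in 4.51% of the windows (2.60 to 7.72%), against 14.8% and 13.6%. For CCAAT boxes the shares lay closer together, with 43.6% (37.8 to 49.6%) against 33.2% and 37.4%. At regions in all libraries at gene ends the shares were 73.0% for GC boxes, 21.7% for the Ets motif, 5.15% for TATAAA and 55.7% (53.6 to 57.8%) for CCAAT boxes. The high shares of GC boxes and Ets motifs and the low share of TATAAA were thus found at both kinds of shared region, and the interval for CCAAT boxes lay above that of the internal starts. The sets were not matched for base composition, and how far it enters these motif shares was not tested. The marked letters of neighbouring motifs can overlap, as where ATTGG runs into a GC box, and each motif was counted on its own.

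A pair of p53 consensus half-sites with at most 3 mismatches in 20 bases was found in 6.39% of the windows (4.03 to 10.0%), against 6.46% of internal starts without a summit, 5.44% at gene ends and 6.29% of all listed starts. The AP-1 motif TGANTCA also stood near its background, at 6.39% (4.03 to 10.0%) against 8.58% and 7.81%. These matches are descriptions of letters in a 300-base window, and windows away from listed starts were not searched.

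**Figure D3:**
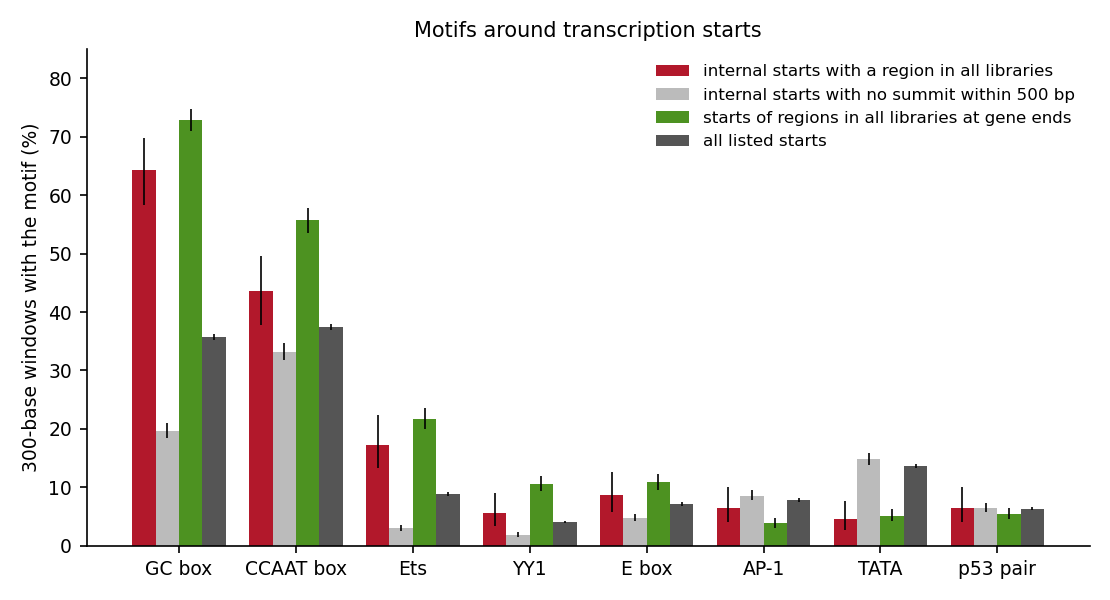
Percent of 300-base windows that hold a motif on either strand (vertical axis) for 8 motifs, in internal starts with a region in all libraries, internal starts with no summit within 500 bp, starts at regions in all libraries at gene ends, and all listed starts; bars are shares and lines are Wilson 95% intervals. GC boxes occur in 64.3% of the windows of the regions and in 19.7% of internal starts without a summit, and the p53 pair in 6.39% and 6.46%.

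Among the internal starts, repeated CCAAT boxes were most frequent at the best-ranked regions. The worst rank of a region is its lowest place over the 4 lists, counted from 1 for the highest score, and the 268 regions at a start were divided into 4 groups of 67 by it. At least 2 CCAAT boxes were found in 26 of 67 windows of the best group (38.8%, 28.0 to 50.8%), and in 13, 13 and 12 of 67 windows of the next groups (19.4%, 19.4% and 17.9%). Over all 266 windows the share was 24.1% (19.3 to 29.5%), against 30.0% (28.1 to 32.1%) at regions in all libraries at gene ends and 11.7% of all listed starts, so that repeated CCAAT boxes were also common at gene ends. Median G and C content was 62.0% in the best group and 58.3%, 61.7% and 60.7% in the others. At least 1 CCAAT box was found in 52.2% (40.5 to 63.7%) of the windows of the best group. The next groups had 40.3%, 49.3% (37.7 to 60.9%) and 31.3%, so that by this count the best group stood close to the third. The intervals of the best group and of the others overlapped, and the grouping was made after the windows had been seen. The best group also includes the printed windows, after which the CCAAT box was picked.

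Over all 1336 regions, the share at a start was lower in each of 4 equal groups of worse ranks. It was 32.3% (27.5 to 37.5%) in the group of 334 with the best worst ranks, then 19.5%, 16.2% and 12.3%. By library, regions at a start had a median score percentile within their list of 94.8 and 91.6 in mTEChi replicates 1 and 2, and 93.9 and 86.8 in mTEClo replicates 1 and 2. Regions away from listed starts had 88.9 and 80.3 in mTEChi, and 88.7 and 80.7 in mTEClo. The difference of 7.12 points was positive in 4 of 4 libraries, with p = 0.13 by the exact sign-flip permutation test.

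The score of a peak is the authors' own value, the −log10 of either p or q, and served to rank peaks within a list; scores of separate lists are not comparable as levels. The highest score of every list lay in the Cdh13 interval at chr8:118847013-118847314, 477766 bp from the nearest gene end; Cdh13 encodes T-cadherin, a cadherin without a transmembrane domain. Its score was 276 and 156 in mTEChi and 108 and 134 in mTEClo, and the summits of the 4 libraries fell within 1 bp of each other. No listed start lay near it. Whether a site of this kind reflects a repeat or another feature of the genome was not tested.

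Of the 15 regions with the best worst ranks, 7 lay at an internal start. The Hnrnpl region scored 95.7 and 39.96 in mTEChi and 45.4 and 31.2 in mTEClo, and stood at rank 39 or better in every list. Ppm1b scored 67.3 and 28.3 in mTEChi and 36.2 and 21.0 in mTEClo. The Arntl region scored 42.1 and 26.0 in mTEChi and 31.5 and 27.4 in mTEClo. These 3 regions were near the top of both states' lists, and their worst ranks were 39, 107 and 170.

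Slc27a1 scored 37.3 and 24.2 in mTEChi and 33.1 and 20.0 in mTEClo. Sp2 scored 54.3 and 20.4 in mTEChi and 28.9 and 15.4 in mTEClo. The Sin3a region scored 64.8 and 20.6 in mTEChi and 21.5 and 14.9 in mTEClo. Within the lists, Slc27a1 stood at ranks 224 and 183 in mTEChi and 64 and 130 in mTEClo. Tarbp2, which encodes a partner of the miRNA-processing enzyme Dicer, scored 52.1 and 29.6 in mTEChi and 26.7 and 13.6 in mTEClo.

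The other 8 regions of the 15 had no listed start within 500 bp. Tacc2, a gene of a microtubule-associated coiled-coil protein, scored 66.9 and 42.8 in mTEChi and 48.6 and 27.6 in mTEClo, at −2725 bp relative to a listed Tacc2 start. Zfp809, a KRAB zinc finger gene known for silencing retroviral elements, scored 53.7 and 34.9 in mTEChi and 34.7 and 24.1 in mTEClo. Polr1b, the gene of the second-largest subunit of RNA polymerase I, scored 37.0 and 54.3 in mTEChi and 42.2 and 65.3 in mTEClo. Polr1b stood at ranks 229 and 12 in mTEChi and 30 and 3 in mTEClo.

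The region in Kat6b, a histone acetyltransferase gene, lay 873 bp downstream of a listed start and scored 44.6 and 16.5 in mTEChi and 23.7 and 24.6 in mTEClo. The Def6 region, in the gene of a guanine nucleotide exchange factor of lymphocytes, lay at −8450 bp relative to the start of Ppard, a nuclear receptor gene, and scored 32.9 and 29.7 in mTEChi and 21.6 and 18.01 in mTEClo. Its ranks were 303 and 94 in mTEChi and 331 and 170 in mTEClo. The remaining regions lay in 4931414P19Rik, with a worst rank of 175, and in the overlapping genes Pnkd and Tmbim1, with a worst rank of 524.

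**Figure D4:**
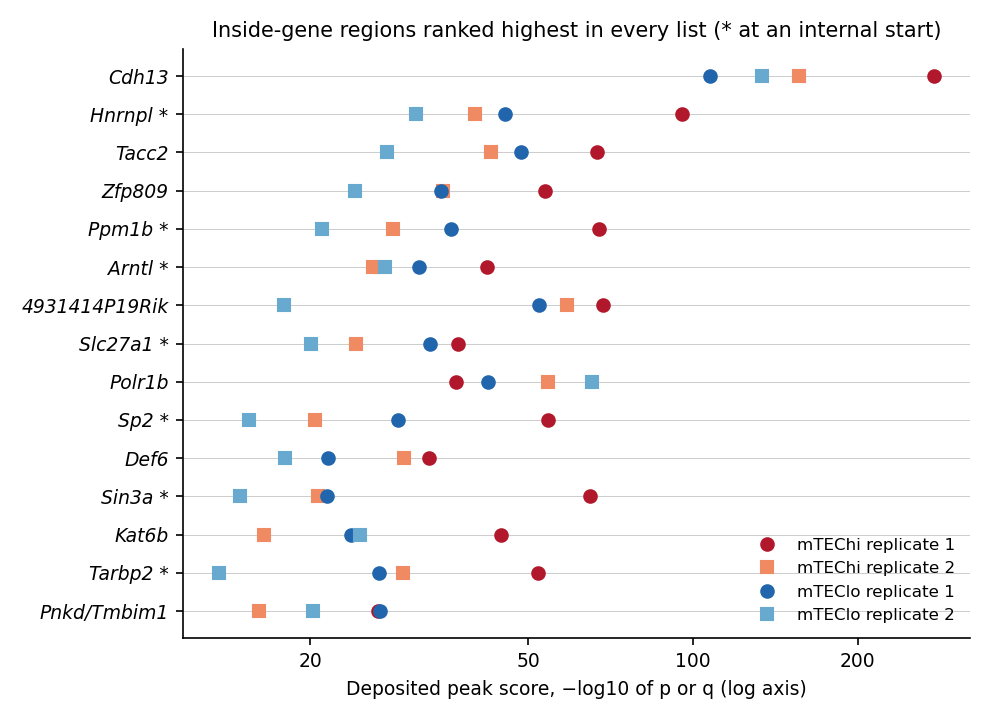
Deposited peak score (horizontal log axis, −log10 of p or q) of the 15 inside-gene regions with the best worst rank, one row per host gene, with one point per library; an asterisk marks a region at an internal start. Cdh13 stands apart with 276 and 156 in mTEChi and 108 and 134 in mTEClo, and scores of different lists are not comparable as levels.

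Shared inside-gene regions scored below shared regions at gene ends. Their median percentile was 90.1 and 83.3 in mTEChi replicates 1 and 2, and 90.2 and 83.5 in mTEClo replicates 1 and 2. Regions at gene ends had 96.3 and 96.2 in mTEChi, and 95.5 and 92.0 in mTEClo. The difference of −8.22 points was negative in 4 of 4 libraries (p = 0.13, exact sign-flip permutation test, the smallest possible). Against regions between genes, with 88.9 and 83.3 in mTEChi and 90.2 and 80.7 in mTEClo, the difference was 0.979 points (p = 0.5, exact sign-flip permutation test). The same regions were thus higher than intergenic ones in 2 libraries and equal to them in the other 2.

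Not all were strong peaks. In the highest 25% of their list stood 72.5% and 58.6% of the regions in mTEChi, and 69.7% and 59.4% in mTEClo. In the lowest 25% stood 5.97% and 12.3% in mTEChi, and 6.19% and 13.3% in mTEClo. The median score was 7.21 and 4.88 in mTEChi, and 7.39 and 5.46 in mTEClo, and the lowest score of a region was close to the lists' minimum of 2.00 in each library.

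Within genes, the regions leaned towards the 5′ end. The strand of the host was listed for 1086 regions, and 35.9% of these (33.1 to 38.8%) lay in the first 25% of the gene, against 24.3% of 78081 inside-gene regions with a peak in 1 library. Without the regions at a listed start the share was 28.7% (25.7 to 31.9%) of 825. Within 5 kb of the 5′ end lay 24.5% of the regions, 14.5% of those away from listed starts, and 8.35% of single-library regions. Host genes of these 3 sets differed in length, with medians of 75.1, 97.2 and 125 kb, and a given distance spans more of a short gene.

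The median distance from the summit to the nearest gene end was 13.4 and 13.3 kb in mTEChi and 13.4 kb in both mTEClo libraries. For single-library regions it was 28.0 and 23.7 kb in mTEChi, and 23.9 and 24.0 kb in mTEClo. The regions were chosen by their distance to gene ends, among other things, and are the same in every library, so that the difference of −11.5 kb is a description without a test. Where the strand was listed, their host genes were also shorter, with a median of 75.1 kb against 125 kb for single-library regions. How far gene length enters the difference was not tested. Of the 1373 regions, 409 lay within 5 kb of a gene end, 265 more than 50 kb away and 111 more than 100 kb away. The farthest, in the cadherin gene Pcdh15, lay 653 kb from any end and scored 2.77 and 4.88 in mTEChi and 4.10 and 3.94 in mTEClo.

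At the limit of the rule, the nearest regions inside it lay 1008 bp from an end in the overlapping genes Gas6 and Tmem255b, and 1010 bp in Wdcp. They scored 8.90 and 3.79 in mTEChi and 4.99 and 7.82 in mTEClo, and 6.13 and 5.97 in mTEChi and 15.7 and 4.93 in mTEClo. Just outside stood regions at Azin1, 1000 bp from its end, and at S1pr2, 999 bp. The Azin1 region scored 16.2 and 4.24 in mTEChi and 4.10 and 3.48 in mTEClo, and the S1pr2 region 3.62 and 2.88 in mTEChi and 4.60 and 4.40 in mTEClo.

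The share of each list that lay in the regions did not separate the states. It was 1.98% and 1.67% in mTEChi and 1.63% and 2.08% in mTEClo, or 1.83 ± 0.220% and 1.85 ± 0.319% (SD, n = 2 libraries each). The difference of −0.0228 percentage points was smaller than the spread within either state (p = 1, two-sided exact permutation test, for which 2 against 2 libraries allow no p below 0.33). The median percentile was 86.7 ± 4.75 in mTEChi and 86.9 ± 4.79 in mTEClo (SD, n = 2), a difference of −0.156 points (p = 0.667, exact permutation test), also within the spread.

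For single regions, each library's scores were ranked over the 5140 regions in all libraries, giving a position from 0 to 100 with the highest score at 100. Both mTEChi positions exceeded both mTEClo positions in 260 of the 1373 regions (18.9%), where the share over all 5140 regions was 20.4%. Both mTEClo positions exceeded both mTEChi positions in 306 (22.3%), where the share over all was 19.9%. Both counts were near the background of all shared regions. Of those with listed starts, 54 of 257 higher in mTEChi lay at an internal start (21.0%, 16.5 to 26.4%), and 48 of 296 higher in mTEClo (16.2%, 12.5 to 20.8%), with overlapping intervals.

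**Figure D5:**
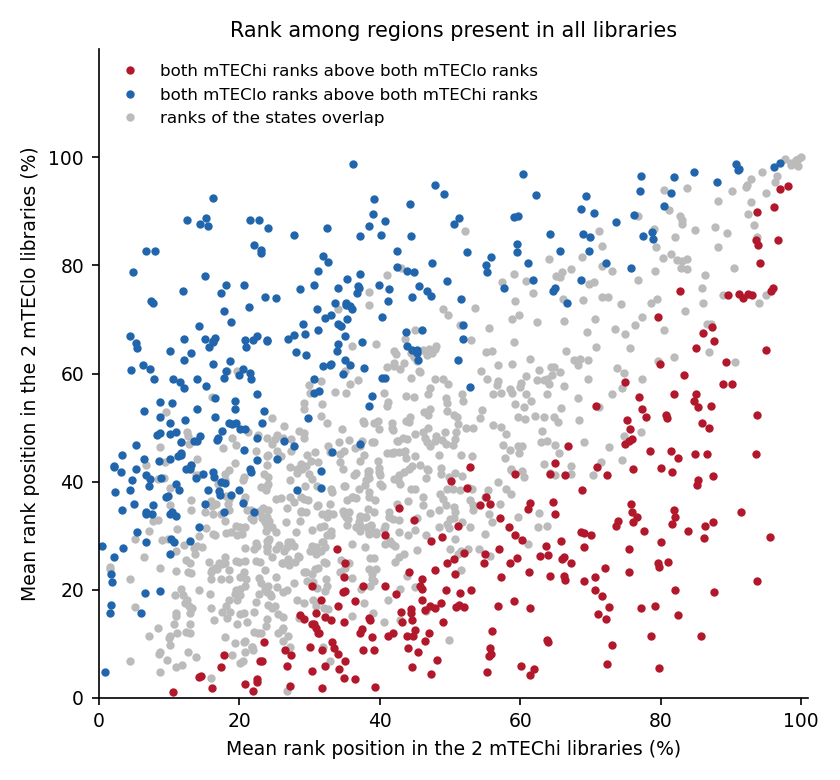
Mean position of each of the 1373 regions among the 5140 regions in all libraries, in the 2 mTEChi libraries (horizontal axis, %) and the 2 mTEClo libraries (vertical axis, %); one point per region, coloured by whether the positions of the states overlap. The 260 regions higher in mTEChi lie to the lower right and the 306 higher in mTEClo to the upper left, and most points overlap between states.

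The regions with the widest gap in favour of mTEChi included those in Sertad2, Galnt18, Cflar, Sh3pxd2a, Rell1, Ip6k1 and St3gal1. The Sertad2 region, at −150 bp relative to an internal start of this gene of a transcriptional co-regulator, had positions of 87.6 and 83.8 in mTEChi against 15.4 and 7.34 in mTEClo. Galnt18, a gene of the GalNAc-transferase family, had 74.7 and 69.8 in mTEChi against 7.68 and 4.79 in mTEClo. Cflar, which encodes the caspase-8 inhibitor c-FLIP, had 76.8 and 80.5 in mTEChi against 15.4 and 7.34 in mTEClo. All 3 were among the weaker shared regions in both mTEClo lists.

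Sh3pxd2a, a gene of a podosome scaffold, had positions of 85.6 and 89.7 in mTEChi against 25.8 and 13.4 in mTEClo. Ip6k1, an inositol phosphate kinase gene, had 92.0 and 91.0 in mTEChi against 31.0 and 37.6 in mTEClo. St3gal1, a sialyltransferase gene, had 86.3 and 78.5 in mTEChi against 25.8 and 4.98 in mTEClo. Of the 8 regions with the widest gap, the Sertad2 region was the one at a listed internal start, and for Galnt18, Sh3pxd2a and St3gal1, among others, no start of the gene was listed. These regions were picked for their gap, so the gap is a description without a test.

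The 8 regions with the widest gap in favour of mTEClo lay in Macrod2, Trim71, Efs, Ptch1, Clns1a, Tnrc6c, Anks1 and Arnt2, and 0 of them lay at a listed start. Macrod2, a gene of an ADP-ribose hydrolase, had positions of 18.4 and 14.2 in mTEChi against 91.9 and 93.2 in mTEClo. Trim71, which encodes an RNA-binding ubiquitin ligase of stem cells, had 6.05 and 7.49 in mTEChi against 89.6 and 75.8 in mTEClo. Ptch1, the gene of the Hedgehog receptor, had 14.4 and 1.69 in mTEChi against 87.5 and 77.9 in mTEClo. The positions of the states lay far apart in these 3 regions.

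Efs, a gene of an adaptor that binds Src kinases, had positions of 11.7 and 17.3 in mTEChi against 90.3 and 84.96 in mTEClo. Tnrc6c, a gene of miRNA-mediated silencing, had 20.0 and 10.4 in mTEChi against 96.3 and 81.3 in mTEClo. Arnt2, which encodes a partner of basic helix-loop-helix PAS factors, had 24.6 and 18.3 in mTEChi against 95.7 and 81.3 in mTEClo. As with the mTEChi set, these values chose the regions.

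Libraries of one state ranked the regions somewhat more alike than libraries of different states. Spearman's rho over the 1373 regions was 0.51 between the mTEChi libraries and 0.36 between the mTEClo libraries, and 0.23 to 0.32 between libraries of different states; this is across regions, which are not independent replicates. Summit positions did not follow the states: the median distance between summits was 72 bp within mTEChi, 68 bp within mTEClo and 71 to 77 bp between states. All 4 summits lay within 50 bp in 106 regions. The spread of the 4 summits had a median of 129.5 bp at internal starts and 159 bp away from them.

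The 1373 regions lay in 1195 host genes, 5.78% of the 20665 protein-coding genes on these chromosomes. One region each was found in 1034 genes, 2 in 136, 3 in 21, 4 in 2 genes and 5 in 2 genes, and 14 regions had more than 1 host. Longer genes hosted more often: the share was 0.912% of genes up to 10 kb, 5.00% from 10 to 50 kb, 12.8% from 50 to 200 kb and 22.9% above 200 kb. The median host length per region was 74.3 kb, against 17.5 kb for all protein-coding genes, and each list count below is to be read beside the lengths of its genes.

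Cdkal1, a tRNA-modifying enzyme gene of 664 kb, held 5 regions, 2 of them less than 1 kb apart. The best scored 8.46 and 10.6 in mTEChi and 11.6 and 5.96 in mTEClo. Slc24a4, a cation exchanger gene of 138 kb, also held 5, the best with 13.1 and 4.77 in mTEChi and 7.84 and 7.15 in mTEClo. Atp8a2, a lipid flippase gene, and Tiam1, an activator of the GTPase Rac, held 4 each. The best Tiam1 region lay 1.52 kb from the 5′ end and scored 12.7 and 9.11 in mTEChi and 15.9 and 10.3 in mTEClo. None of the regions of these 4 genes lay at a listed start, and no start of Atp8a2 was listed.

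Cadps, a gene of vesicle exocytosis, held 3 regions whose nearest listed start was that of its neighbour Fezf2, a transcription factor gene of thymic epithelium that takes part in self-antigen expression. They lay at −39416, −45495 and −99383 bp relative to that start. The middle one scored 6.67 and 5.22 in mTEChi and 7.39 and 5.12 in mTEClo. Position is all that ties these regions to Fezf2 here. Arid1b, a subunit gene of BAF complexes, and the genes Aopep and Camta1 also held 3 each.

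Among genes of mature mTEC and Aire-related function, 5 of 20 hosted a region (25.0%, 11.2 to 46.9%, median gene length 21.6 kb). The share was 5.78% of all genes and 5.00% of genes of 10 to 50 kb, and the count of 5 hosts rests on few genes. The hosts were Cd80, a costimulatory ligand, Ciita, the co-activator of MHC class II genes, H2-DMa, a chain of the protein that loads peptide onto MHC class II, and Nfkb2 and Map3k14 of the alternative NF-κB pathway. The H2-DMa region at chr17:34135368-34135693 was the strongest, with 45.7 and 14.0 in mTEChi and 25.3 and 15.9 in mTEClo. A second region nearby, at −111 bp relative to an internal start of H2-DMb2, the neighbouring partner gene, scored 26.3 and 23.6 in mTEChi and 21.4 and 9.65 in mTEClo. Both were high in all 4 lists.

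Rfx5 and Rfx1, from the same family of DNA-binding factors, each held a region at an internal start; Rfx1 and Rfx5 were not in the lists. Rfx5 scored 48.9 and 20.3 in mTEChi and 18.2 and 13.1 in mTEClo, at −80 bp relative to the start. Rfx1 scored 37.4 and 13.0 in mTEChi and 31.5 and 17.96 in mTEClo, at −154 bp. Their worst ranks were 557 for Rfx5 and 761 for Rfx1. The Ciita region, 9597 bp from a gene end, was weaker, with 6.53 and 3.16 in mTEChi and 8.34 and 4.93 in mTEClo. Cd80 had its region at −30 bp relative to an internal start, with 8.16 and 4.40 in mTEChi and 2.74 and 3.94 in mTEClo.

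Among 20 genes of thymic epithelial identity, 4 hosted a region (20.0%, 8.07 to 41.6%, median length 11.5 kb), against 5.78% of all genes. They were Trp63, the p53 family member of epithelial progenitors, Pax9, Cdh1 and Prss16, a protease of thymic epithelium. The Pax9 region lay 125 bp downstream of an internal start and scored 14.1 and 3.59 in mTEChi and 9.13 and 6.90 in mTEClo. The Trp63 region was 48253 bp away from any gene end and scored 4.06 and 4.34 in mTEChi and 9.82 and 10.3 in mTEClo. Positions of the Trp63 region were 12.9 and 29.8 in mTEChi against 60.4 and 84.2 in mTEClo, without overlap between states, as in the 19.9% of all shared regions higher in both mTEClo libraries. Ctnnd1, encoding the junction protein p120-catenin, was the one host among 20 genes of immature mTEC (5.00%).

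Against 5.78% of all genes, 4 of 44 p53 target genes hosted a region (9.09%, 3.59 to 21.2%, median length 15.3 kb). These were Sesn1, a stress-induced regulator of mTORC1, Dram1, a lysosomal protein gene, Cd82, a tetraspanin gene, and Rps27l, a ribosomal-protein-like gene. Dram1 and Rps27l had one at an internal start, at −283 and −21 bp. Rps27l scored 4.56 and 3.34 in mTEChi and 8.63 and 3.03 in mTEClo. The Dram1 region at the internal start scored 3.19 and 3.63 in mTEChi and 4.02 and 2.62 in mTEClo. Another Dram1 region, away from listed starts, had the better worst rank and scored 2.77 and 3.83 in mTEChi and 5.66 and 3.94 in mTEClo. Cd82 had the highest score of the 4 genes in mTEChi replicate 1, with 14.9 and 3.45 in mTEChi and 7.60 and 4.48 in mTEClo. Cdkn1a and Mdm2, an arrest gene and the main inhibitor of p53, hosted 0, and so did Trp53 and Aire. The rule leaves out peaks outside genes and within 1 kb of a gene end, so a count of 0 here says nothing about peaks there. The widest presence of an inside-gene region more than 1 kb from gene ends was 3 libraries in Cdkn1a and in Trp53, 2 in Aire and 1 in Mdm2.

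Of 28 BAF subunit genes, 5 were hosts (17.9%, 7.88 to 35.6%, median length 31.6 kb), against 5.78% of all genes and 5.00% of genes of 10 to 50 kb. They were the ATPase gene Smarca2, Arid1a, Arid1b, Bicra and Bicral. Arid1a scored 14.3 and 6.01 in mTEChi and 14.1 and 4.42 in mTEClo, and Bicra 16.05 and 7.15 in mTEChi and 12.7 and 9.003 in mTEClo. Of 19 CHD, ISWI and INO80 genes placed, 4 were hosts (21.1%, 8.51 to 43.3%, median length 67.6 kb), against 12.8% of genes of 50 to 200 kb. They were Chd2, Chd3, Chd9 and Baz1b. Chd2 scored 20.9 and 13.6 in mTEChi and 27.5 and 6.57 in mTEClo, and Baz1b 20.0 and 9.20 in mTEChi and 17.3 and 10.3 in mTEClo. None of the 9 had a region at a listed start, but for Bicra, Bicral, Chd2 and Chd3 no start of the gene was listed, so that an internal start of their own could not have been found.

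In signalling lists, 6 of 28 NF-κB and TNF receptor pathway genes (21.4%, 10.2 to 39.5%) and 4 of 22 Notch pathway genes (18.2%, 7.31 to 38.5%) were hosts, against 5.78% of all genes and 5.00% of genes of 10 to 50 kb. Their median lengths were 27.7 and 23.1 kb. The NF-κB hosts were Nfkb2, Nfkbie, Tab1, Traf2, Tnip1 and Birc2, and Traf2, an adaptor of TNF receptors, had the best worst rank of them, 5032, with 22.8 and 8.88 in mTEChi and 8.63 and 7.75 in mTEClo. The Notch genes were the receptor gene Notch1, its nuclear effector Rbpj, the co-activator gene Maml3 and the protease gene Adam17. The Adam17 region had positions of 89.9 and 74.0 in mTEChi against 10.4 and 29.4 in mTEClo. Maml3 held 2 regions, one with positions of 83.1 and 90.1 in mTEChi against 22.5 and 67.6 in mTEClo, and one with 34.2 and 18.3 in mTEChi against 8.56 and 41.2 in mTEClo. The Adam17 region and the first Maml3 region were higher in each mTEChi library than in either mTEClo library, as 20.4% of all shared regions were, and the second Maml3 region overlapped between the states.

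Among transcription factor families, 7 of 31 Zbtb genes (22.6%), 4 of 21 Ets genes (19.05%) and 3 of 19 AP-1 genes (15.8%) were hosts, against 5.78% of all genes. Their median lengths were 21.2, 38.9 and 9.84 kb. The Zbtb hosts were Zbtb2, Zbtb7a, Zbtb7c, Zbtb11, Zbtb16, Zbtb20 and Zbtb46. Zbtb7a scored 21.6 and 21.7 in mTEChi and 6.49 and 12.7 in mTEClo, and Zbtb46 15.8 and 15.1 in mTEChi and 14.2 and 9.003 in mTEClo. Etv6 and Elk3 held 3 regions each, Ets1 and Elf2 2 each, and the AP-1 hosts were Fosb, Bach1 and Bach2. None of the Ets or AP-1 hosts had a region at a listed start, and no start of Ets1 was listed.

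Genes of splicing factors and hnRNPs held 6 hosts of 36 (16.7%, 7.87 to 31.9%, median length 18.4 kb), against 5.78% of all genes. Among these hosts, 3 held a region at an internal start: Hnrnpl, Hnrnph1 and Hnrnpu. Hnrnph1 scored 23.2 and 9.39 in mTEChi and 18.1 and 18.01 in mTEClo, at −54 bp relative to the start. The others, Rbfox1, Rbfox2 and Mbnl2, held theirs away from listed starts in long genes. Of 14 DNA methylation genes 1 was a host, Dnmt1, the maintenance methyltransferase gene, 35 bp downstream of an internal start with 11.03 and 6.01 in mTEChi and 12.7 and 10.99 in mTEClo. Ribosomal protein genes, with a median length of 3.23 kb, held 2 hosts of 39 (5.13%), both at an internal start: Rpl22, with 12.4 and 13.6 in mTEChi and 13.5 and 27.5 in mTEClo, and Rps2.

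Actin and cell adhesion genes had the highest share of the 19 lists, with 11 hosts of 28 (39.3%, Wilson 23.6 to 57.6%). Their median length was 75.3 kb, and 12.8% of all genes of 50 to 200 kb were hosts. They included Actn4, Vcl, Pxn, Cdh1, Cdh13, Myh9, Macf1, Lpp, Lima1 and Tns3, and 0 of the 11 had a region at a listed start. For some of them, among them Pxn, Cdh1 and Cdh13, no start of the gene was listed. The gene lists were chosen with earlier results of these data known, and Cdh13, which holds the highest score of every peak list, is 1 of the 11. The share and its interval are therefore a description. Vcl, which encodes the focal adhesion protein vinculin, scored 20.4 and 12.8 in mTEChi and 14.96 and 12.4 in mTEClo. Actn4, an actin crosslinker gene, scored 15.95 and 6.601 in mTEChi and 17.5 and 7.74 in mTEClo. Among all shared regions, Vcl had positions of 83.9 and 85.9 in mTEChi and 83.4 and 89.9 in mTEClo, which overlap between the states.

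Lists of other cell types of the thymus held 0 to 2 hosts each. None of 24 thymocyte genes and none of 19 B cell and myeloid genes hosted a region (median lengths 22.3 and 16.5 kb). By the limit of 3 genes that a count of 0 allows, the shares could be up to 12.5% and 15.8%, and the Wilson upper bounds were 13.8% and 16.8%. All of these lie above the 5.78% of all genes, so that lists of this size do not separate a count of 0 from the share of all genes. Fibroblast and endothelial genes held 2 hosts of 20 (10.0%, median length 39.3 kb), Pecam1 and Flt1, both best known from endothelium. Pecam1 scored 8.21 and 6.46 in mTEChi and 20.2 and 10.1 in mTEClo, and Flt1 7.26 and 4.88 in mTEChi and 12.01 and 3.94 in mTEClo. Of 24 Aire-dependent antigen genes, with a median length of 7.07 kb, 0 were hosts, which by the limit of 3 genes allows up to 12.5%. A peak inside a gene is not expression of that gene, so that no cell type is named from these counts.

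Other genes lay under some of the regions. A small nuclear RNA gene, Rnu1a1, was overlapped by a region in Tex14 that scored 36.6 and 9.97 in mTEChi and 13.5 and 6.57 in mTEClo. Another small RNA gene inside Tex14, Rnu3b1, was overlapped by a region with 22.5 and 17.97 in mTEChi and 11.3 and 5.46 in mTEClo. The tRNA gene n-TRtcg5 in Polg had 4.56 and 6.61 in mTEChi and 6.79 and 7.15 in mTEClo, and the miRNA gene Mir5618 in Tmem123 had 7.85 and 3.83 in mTEChi and 8.63 and 7.75 in mTEClo. Overlaps of a region with a long non-coding RNA gene numbered 109, and no such count is given here for other regions. Copies of small RNA genes are nearly identical, so that reads may be shared among them.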

How the data were processed

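CUT&RUN libraries of 2 mTEChi and 2 mTEClo samples were each represented by 1 deposited peak list. Groups and replicate numbers came from the sample titles. The submitters' processing notes name MACS2 2.2.7.1, SAMtools 1.9, Picard and Bowtie2 2.2.9 with mm10; for settings and any control, the sources used here give nothing. The deposited intervals have one width, reaching 150 bp to either side of a summit, and were made for each library separately. The score deposited by the authors is a −log10 value of p or q, which of them is not stated, with a minimum of 2.00; it served to rank peaks within a list, scores of separate lists are not comparable as levels, and many peaks share a score. Depth is unknown.

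Regions were merged and placed against 20665 protein-coding genes of RefSeq (GRCm38.p6), without exon positions, so that exon and intron were not assigned. Internal starts, strands and 300-base windows came from a RefSeq table of 32851 starts in 27025 genes, which is incomplete and lacks chromosome 18. A mm10 genome was not used here, so that sequence away from listed starts was not searched. Where a region held several peaks of a library, the best was used. Percentiles and positions used average places for ties, and ranks within a list gave tied peaks the best of their places.

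Differences between states were assessed with a two-sided exact permutation test over libraries, and classes of regions by the two-sided exact sign-flip permutation test over the 4 libraries; the difference in distance to gene ends, which the rule used, is given without a test. Shares have Wilson 95% intervals, which cover counting error only. Gene lists are described by counts beside the share of all genes. The text names the 15 regions with the best worst rank, the 8 with the widest gap for each state, the genes with most regions, list hosts up to 8 per list, the regions next to the 1 kb limit, and always Cdkn1a, Mdm2, Trp53, Aire and Cdh13; Rfx1 and H2-DMb2 are outside that rule, come from the best-ranked regions at internal starts, and were chosen after their values were seen. Some genes that the rule names are not reported here. The regions and the gene lists were chosen with earlier results of these data known. Alternatives were the upper 50% of each list, the 10000 highest peaks, equal list lengths of 69359, an overlap of 150 bp, gene end distances of 250 bp and 3 kb, regions no wider than 2 intervals, each library left out, the replicate number as a block and, added after seeing the data, other start windows and hosts with a listed start. The steps were tested on simulated data. Computation used matplotlib 3.10.9, scipy 1.17.1, pandas 2.3.3 and numpy 2.4.6 under Python 3.11.15.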

Additional observations from a re-analysis of the deposited data

Results flagged for a closer look

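Chromosome X lay outside the rule. By the same steps it held 22 regions with a peak in all libraries, and 4 of them lay inside genes and more than 1 kb from gene ends. These 4 regions are given because the comparisons above use no data of chromosome X; the count is a description by the same rule, with no test and no control library behind it.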

How the results depend on the processing

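The lower scores against gene ends (−14.5 to −5.75 points), the shorter distance to gene ends (−13.8 to −8.90 kb) and the excess at internal starts (12.5 to 29.8 points) kept their direction under every alternative run. The difference of −0.156 points between mTEChi and mTEClo in score percentile did not: it was 2.70 in the upper 50% of each list, 0.884 in the 10000 highest peaks, 1.51 at equal list lengths, 0.409 with an overlap of 150 bp, 1.96 and 1.66 with a gene end distance of 250 bp and regions no wider than 2 intervals, and −6.51 to 8.68 with 1 library left out (8.68 without mTEClo replicate 1). The difference in list share was 0.015 in the 10000 highest peaks and −0.295 to 0.347 with 1 library left out. Against regions between genes the difference was −0.261 with regions no wider than 2 intervals and −0.496 to 0.477 with 1 library left out. The cause was not tested.

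The 1373 regions numbered 664 in the upper 50%, 220 in the 10000 highest peaks and 819 with the overlap, and 1690 to 2436 with 1 library left out, where 3 peaks suffice; the upper figures are those without mTEChi replicate 2 (2436) and without mTEClo replicate 2 (2290). Those higher in mTEChi numbered 121, 34 and 157, and those higher in mTEClo 162, 63 and 190; with 1 library left out they were 575 to 814 and 669 to 888, where the number of regions and the number of positions to be exceeded both changed. The share at an internal start was 26.5% in the upper 50%, 34.3% in the 10000 highest peaks, 26.5% and 13.8% with gene end distances of 250 bp and 3 kb, 17.4% with starts within 250 bp, 24.1% among hosts with a listed start, and 14.4 to 17.6% with 1 library left out. With the replicate block the differences were −0.156 points and −0.0228 percentage points, with exact permutation p-values of 0.5 and 1 over 2 pairs; nothing in the labels ties the numbers to a shared animal or day. The positions of single regions did not deviate together in same-numbered libraries (r = −0.0183 over 1373 regions), although the median percentile was higher in replicate 1 than in replicate 2 of mTEChi (90.1 and 83.3) and of mTEClo (90.2 and 83.5). Host counts of lists rest on few genes. Over the alternatives, thymocyte hosts numbered 0 to 2 and B cell and myeloid hosts 0 to 3. Zbtb hosts numbered 1 to 9, Ets hosts 1 to 7 and AP-1 hosts 0 to 5. Hosts among genes of mature mTEC and Aire-related function numbered 1 to 7.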
